A study of Mus musculus with 12 samples.

Results

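The methionine cycle and betaine enzymes were 10 genes, Mat1a, Mat2a, Mat2b, Gnmt, Nnmt, Ahcy, Bhmt, Bhmt2, Dmgdh and Cbs, chosen by symbol from the 46095 genes of a liver tumour count table. All 10 were found by their symbols and all 10 passed the filter on low counts, among 14666 genes tested. RNA sequencing read counts came from hepatocellular carcinomas that the carcinogen diethylnitrosamine (DEN) had induced in the livers of mice. Of the 12 libraries, 7 were of Pck1-null genotype (KO) and 5 of wild-type genotype (WT), and both groups carried the DEN treatment. Pck1 is the cytosolic phosphoenolpyruvate carboxykinase of glucose synthesis, and the study asked how its loss bears on the tumour transcriptome. The labels do not describe the null allele, the strain, sex or age of the mice, or the dose and timing of DEN, and they include no untreated liver. They also do not say that each library came from its own animal, so the p-values describe only the spread from sample to sample, which may be technical.

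The methionine cycle turns methionine into S-adenosylmethionine, the methyl donor of the cell, and recovers methionine from the homocysteine that is left after the methyl group has been passed on. Methionine adenosyltransferase makes S-adenosylmethionine, glycine and nicotinamide N-methyltransferases use it, and adenosylhomocysteinase splits the product into adenosine and homocysteine. Homocysteine then either receives a methyl group, from methylfolate or, in liver, also from betaine, or leaves the cycle through cystathionine beta-synthase toward cysteine. Adult hepatocytes make methionine adenosyltransferase from Mat1a, other tissues from Mat2a, and a switch from the former to the latter is well known in liver cancer.

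Between 17462102 and 23663506 counts were recorded in 7 libraries (KO replicates 1, 2, 3 and 7, WT replicates 1, 3 and 4), called the shallower libraries, and 43071365 to 46747125 in the other 5, called the deeper ones. Pck1 CPM (counts scaled to a common library size, scaled by edgeR's TMM factors) ran from 111 to 1167 in KO and from 1063 to 5822 in WT, with KO replicate 3 above WT replicate 4. Xist, which coats the silenced X chromosome, was above 10 CPM in 6 libraries, WT replicate 4 and KO replicates 1, 2, 3, 5 and 6. All 11 listed mature hepatocyte markers were measured in every library, with summed levels of 82105 to 207212 CPM in KO and 80914 to 255785 in WT. Krt7 and Cftr of the bile duct list, Ms4a1 of the B cell list and Cd3d, Cd2 and Ncr1 of the T and NK cell list were at 0 in at least 1 library. The neutrophil list reached 1649, 250 and 405 CPM in KO replicates 3, 4 and 6, against 22.2 to 50.5 in the other 9 libraries. In bulk tissue, fewer hepatocytes and less RNA per hepatocyte cannot be told apart.

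The genes Bhmt, Bhmt2 and Dmgdh lie next to each other on chromosome 13, and the sequence at their start sites is shown because these neighbours had lower levels in KO. Bhmt (chr13:93616891-93637758), Bhmt2 (chr13:93656097-93674302) and Dmgdh (chr13:93674436-93752823) are consecutive protein-coding genes of GRCm38.p6, the assembly that is also called mm10. Bhmt and Bhmt2 are read from the minus strand and Dmgdh from the plus strand. The Bhmt2 and Dmgdh start sites are 134 bases apart and face away from each other, so that the 300-base start windows of the pair, 250 bases before and 50 after the start site, share 233 bases. The first line holds the 250 bases upstream of Bhmt, chr13:93637759-93638008 on the minus strand, with each AGGTCA in capitals, the core that many nuclear receptors bind. The second holds the 133 bases between the Bhmt2 and Dmgdh start sites, chr13:93674303-93674435 on the plus strand, with each CG in capitals. Both were taken from the RefSeq promoter table of GRCm38.p6.
Bhmt upstream: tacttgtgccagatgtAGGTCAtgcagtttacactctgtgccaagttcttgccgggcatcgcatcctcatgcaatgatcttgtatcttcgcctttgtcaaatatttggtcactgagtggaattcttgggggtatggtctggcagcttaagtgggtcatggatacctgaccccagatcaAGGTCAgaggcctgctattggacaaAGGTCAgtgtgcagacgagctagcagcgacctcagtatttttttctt
Bhmt2-Dmgdh between start sites: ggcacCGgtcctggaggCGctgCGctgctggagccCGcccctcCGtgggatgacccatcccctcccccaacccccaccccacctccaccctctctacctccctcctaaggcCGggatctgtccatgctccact
AGGTCA, searched on both strands, occurred 3 times in the Bhmt window and in none of the Bhmt2, Dmgdh, Mat2a, Mat2b and Cbs windows. It occurred once each in the Gnmt and Ahcy windows. Of 32851 RefSeq promoters of the same length, 16.3% held the motif and 1.81% held it more than once. The Bhmt window had 8 CG pairs, against 26 for Bhmt2 and 25 for Dmgdh, and the median promoter had 7. The Mat2a window had 34. The 8 genes with an entry in the promoter table were searched, and Mat1a and Nnmt were not among them. A match is a description of the letters, not evidence of binding.

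In the KO tumours, 8 of the 10 genes had a negative log2 fold change against WT and 2 a positive one, Mat2a and Mat2b. The median log2 fold change was −1.02, beside 0.03 over all genes tested, of which 46.3% were negative. None of the 10 passed edgeR's quasi-likelihood test after Benjamini-Hochberg adjustment over all genes (adjusted p from 0.195 to 0.532), where 0.0% of the genes tested passed. At an unadjusted p under 0.05, 6 of 10 were called, Ahcy, Bhmt, Bhmt2, Dmgdh and Cbs in the lower direction and Mat2b in the higher, beside 14.7% of all genes tested (7.44% lower and 7.25% higher). The count of adjusted calls depended on the tool. DESeq2 called Mat2b alone (3.34% of all genes), and limma-voom with sample weights called 8, all but Mat2a and Nnmt (14.5% of all genes), while limma-voom without weights called 0. Without KO replicate 6, 9 of 10 had an unadjusted p under 0.05 in edgeR (19.4% of all genes) and again 0 passed after adjustment (0.45% of all genes). Among the shallower libraries 3 of 10 had an unadjusted p under 0.05 in edgeR, Bhmt lower and Mat2a and Mat2b higher (11.1% of all genes), and among the deeper libraries 1 did, Dmgdh in the lower direction (13.3% of all genes). The genes were named and grouped with earlier results of these tumours known, so their shared direction is a description.

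**Figure D1:**
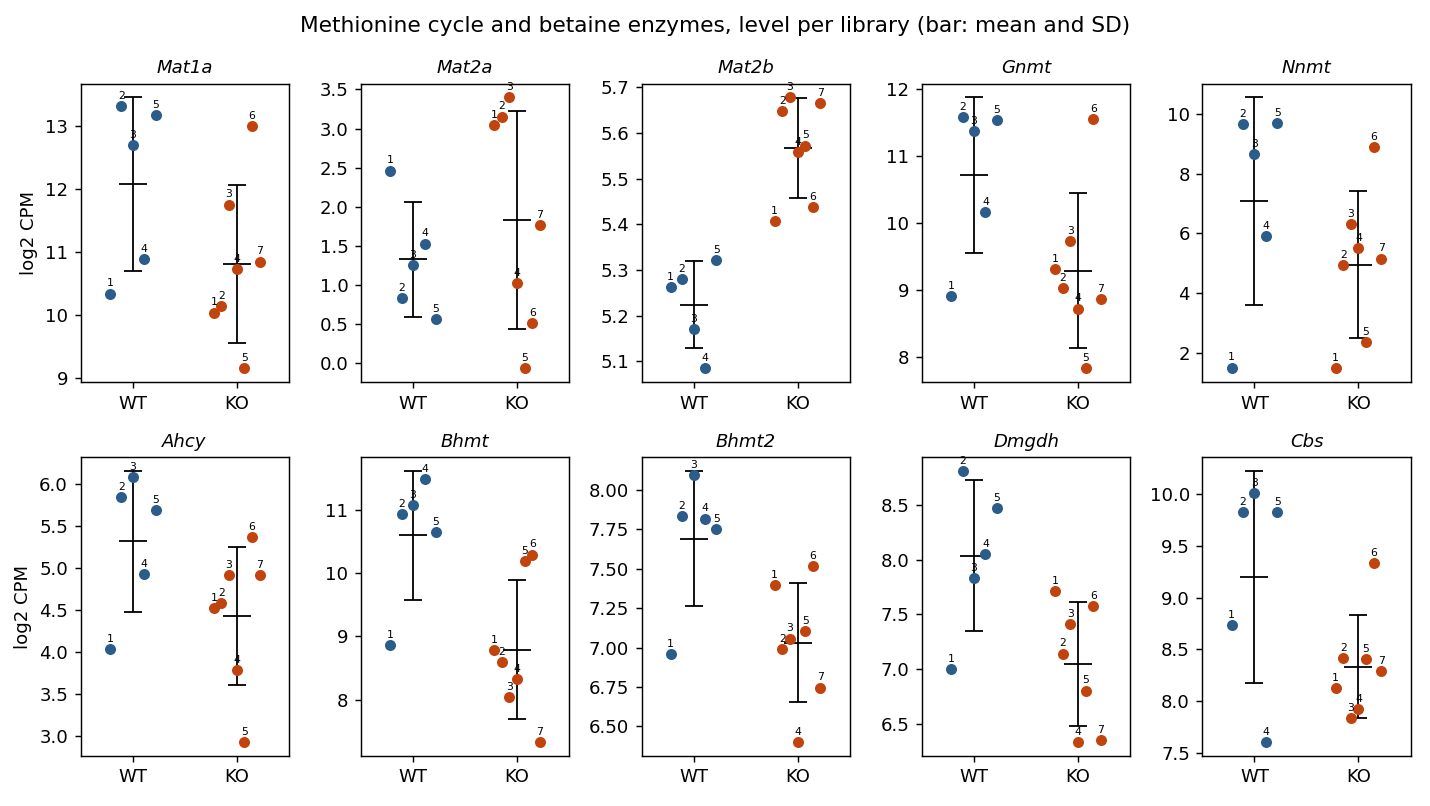
Level of each of the 10 enzymes per library (log2 CPM, a separate vertical axis for each gene, numbers give the replicate, bars give mean and SD) in 5 WT and 7 KO libraries. Mat2b is the one gene whose groups do not overlap, and WT 1 lies among or below the KO libraries for most of the others.

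Mat1a (chr14:41105012-41124428), the catalytic subunit of the hepatocyte methionine adenosyltransferase, was among the most abundant of the 10. Its level in WT was 1291, 10150, 6594, 1883 and 9204 CPM in replicates 1 to 5. In KO it ran from 567.8 CPM in replicate 5 through a median of 1686 to 8130 in replicate 6. The groups overlapped widely, since KO replicate 6 stood with the 3 high WT libraries, and WT replicates 1 and 4 stood with the other KO libraries. KO replicates 1, 2 and 5 lay below all WT libraries. The mean log2 CPM was 10.80 ± 1.25 (SD, n = 7) for KO and 12.08 ± 1.37 (SD, n = 5) for WT, and the edgeR log2 fold change was −1.19 ± 0.68 (SE, adjusted p = 0.430). It was −1.85 without KO replicate 6 (adjusted p = 0.130).

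Mat2a (chr6:72432796-72439556), the catalytic subunit used outside the adult liver, was the scarcest of the 10, with 33 to 218 counts per library. WT replicates 1 to 5 had 5.44, 1.71, 2.32, 2.81 and 1.41 CPM. KO levels ran from 0.886 CPM in replicate 5 through a median of 3.33 to 10.5 in replicate 3. KO replicates 1, 2 and 3 were above all WT libraries, at 8.16, 8.83 and 10.5 CPM, KO replicates 5 and 6 were below all of them, and the spread between KO libraries was 1.90 times that between WT libraries on the log2 scale. The mean log2 CPM was 1.83 ± 1.40 (SD, n = 7) for KO and 1.33 ± 0.74 (SD, n = 5) for WT, with an edgeR log2 fold change of 0.87 ± 0.64 (SE, adjusted p = 0.532). It was 1.12 among the shallower libraries and −0.15, the opposite direction, among the deeper ones, and the 3 high KO libraries were all shallower. Whether estimates differ between the depth classes was not tested for any of the 10 genes. Mat2a overlaps Ggcx, with 25 to 92 counts, and the antisense Particl, with 0 to 6, and it has a pseudogene, Gm9523, that is 95.2% identical over 1065 bases and had 0.302 to 1.30 CPM. Reads of these cannot be told apart from Mat2a's where they overlap or match, since the strand setting of the counting is not given in the sources used here.

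Mat2b (chr11:40679314-40695203) encodes the regulatory subunit that binds the Mat2a product, and it was the steadiest of the 10. In WT, Mat2b had 38.3, 38.8, 36.0, 33.9 and 39.9 CPM in replicates 1 to 5. KO replicates 1 to 7 had 42.4, 50.1, 51.2, 47.1, 47.5, 43.3 and 50.7 CPM. All 7 KO libraries were above all 5 WT libraries, and Mat2b was the only one of the 10 without overlap, beside 1.21% of all genes tested. The mean log2 CPM was 5.57 ± 0.11 (SD, n = 7) for KO and 5.22 ± 0.10 (SD, n = 5) for WT. The difference was 1.27-fold (edgeR log2 fold change 0.34 ± 0.09 SE, unadjusted p = 0.00259, adjusted p = 0.195). It was 0.43 among the shallower libraries and 0.22 among the deeper ones. DESeq2 gave the same log2 fold change with an adjusted p = 0.00570.

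The balance of Mat1a to Mat2a was set per kilobase of exon, so that the levels of the 2 genes could be compared. Mat1a exceeded Mat2a in every library, from 124-fold in KO replicate 2 to 6106-fold in WT replicate 5. The WT libraries had ratios of 229, 5586, 2704, 639 and 6106 in replicates 1 to 5. The KO libraries had 125, 124, 318, 812, 584, 5585 and 529 in replicates 1 to 7. KO replicate 6 thus stood with the highest WT libraries, WT replicates 1 and 4 lay among the other KO libraries, and KO replicates 1 and 2 were below all others. On the log2 scale the balance was 8.94 ± 1.88 (SD, n = 7) for KO and 10.72 ± 2.07 (SD, n = 5) for WT, a difference of −1.78 that did not pass an exact two-sided permutation test (p = 0.149, 792 regroupings, smallest possible p 0.00126). Of the 7 KO libraries, 6 were below the WT mean. Among the shallower libraries the difference was −1.70 and among the deeper −2.08, and permutation within both depth classes gave −1.86 (exact p = 0.0514). Permutation within Xist classes, split at 10 CPM, gave −1.13 (exact p = 0.433, 90 regroupings, smallest possible p 0.0111). In the higher Xist class, WT replicate 4 was the only WT library, so that this part of the difference rests on it. Without KO replicate 6 the difference was −2.36 (exact p = 0.0498), and without WT replicate 1 it was −2.50 (exact p = 0.0606). As a share of the counts of both genes, Mat2a ran from 0.0153% in WT replicate 5 (Wilson 95% interval 0.0118% to 0.0199%) to 0.779% in KO replicate 2 (0.669% to 0.907%). Such intervals cover counting error only.

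**Figure D2:**
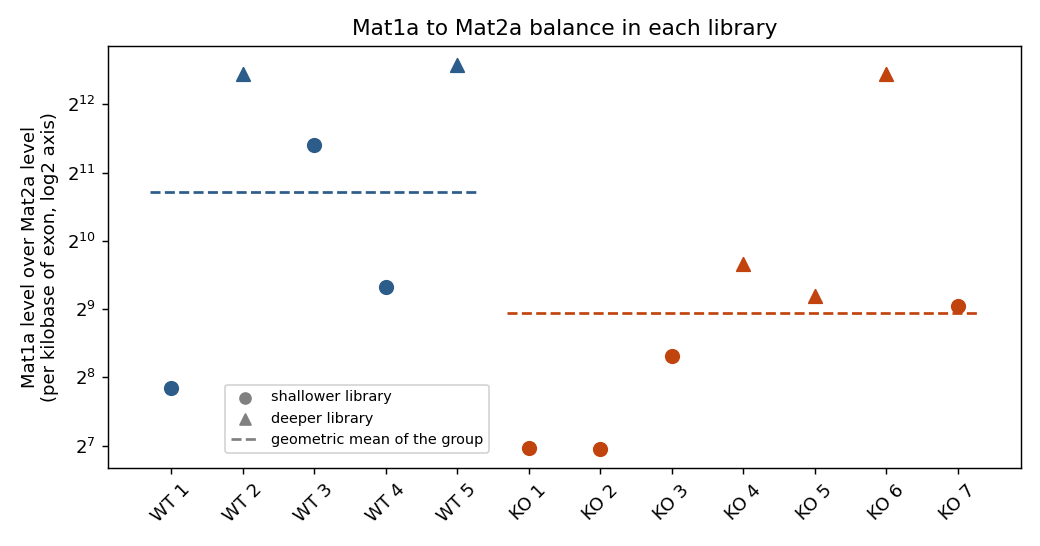
Mat1a level over Mat2a level per kilobase of exon in each library (log2 axis), with circles for shallower and triangles for deeper libraries and dashed lines for the geometric mean of each group. The 5 WT libraries span 229 to 6106 and the 7 KO libraries 124 to 5585, so that the groups overlap.

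Mat1a and Mat2a did not vary as clear opposites over the 12 libraries. Pearson's r was −0.31 (permutation p = 0.312) and Spearman's rho −0.31 (permutation p = 0.330), and r was −0.11 without WT replicates 2 and 5, the libraries farthest from the Mat1a median. It was −0.000743 in KO alone and −0.46 among the 7 shallower libraries, and it was not computed over the 5 deeper ones. KO replicate 5 was the lowest library for both genes.

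Levels of hepatocyte zone markers are given beside both genes. The periportal list held 11 genes that mark hepatocytes near the portal vein, Pck1 among them. It summed to 966 to 3956 CPM in 6 KO libraries and 12979 in KO replicate 6, against 5441 to 22273 in WT. Of its 11 genes, 5 were lower in KO at an unadjusted p under 0.05 (edgeR, 7.44% of all genes) and none higher. Pck1, the gene of the null genotype, was among these 5 (log2 fold change −3.28). It added 111 to 1167 CPM to the KO sums and 1063 to 5822 to the WT sums. The same 4 libraries, KO replicate 6 and WT replicates 2, 3 and 5, were the highest in Mat1a and in the periportal sum. The pericentral list (10 genes that mark hepatocytes near the central vein) summed to 40157, 23202 and 27324 CPM in KO replicates 1, 2 and 3, the libraries with the highest Mat2a, and to 110 CPM in KO replicate 5, the one with the lowest. The next highest library in the pericentral list, WT replicate 1 with 8866 CPM, was also the next in Mat2a. The remaining 7 libraries did not follow this order. WT replicates 3 and 4 had pericentral sums of 1187 and 1410 CPM with Mat2a at 2.32 and 2.81 CPM. WT replicates 2 and 5 and KO replicates 4 and 6 had higher sums, 2616 to 6530 CPM, with lower Mat2a, 1.36 to 1.97 CPM, and KO replicate 7 had 2862 CPM with Mat2a at 3.33 CPM. Of the 10 pericentral genes, 1 was higher in KO at an unadjusted p under 0.05 (edgeR, 7.25% of all genes) and none lower. By the same measure all 9 tested genes of the neutrophil list were higher. Of the endothelial cell markers, 4 of 8 were lower in KO at an unadjusted p under 0.05 (edgeR, 7.44% of all genes) and none higher. Their sum was 129.5 to 664 CPM in KO (median 257), highest in replicate 6, and 359 to 585 in WT (median 429.9). The part of these markers in the results was not tested.

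**Figure D3:**
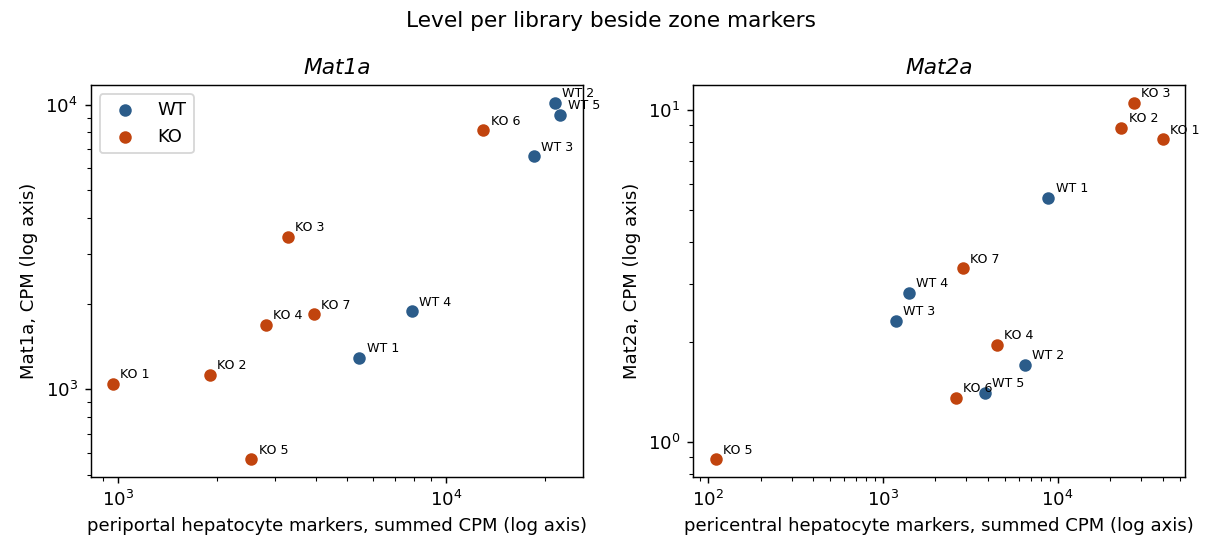
Mat1a level against summed periportal markers (left) and Mat2a level against summed pericentral markers (right), one point per library, all axes in CPM on a log scale. KO 6 and WT 2, 3 and 5 are at the upper right for Mat1a, and KO 1, 2 and 3 are at the upper right for Mat2a, where WT 3 and WT 4 combine low marker sums with middle Mat2a levels.

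Gnmt (chr17:46725664-46729211), the glycine N-methyltransferase that takes up excess S-adenosylmethionine in liver, had the highest median level per kilobase of the 10. The WT libraries had 480, 3061, 2632, 1141 and 2966 CPM in replicates 1 to 5, and KO levels ran from 227 CPM in replicate 5 through a median of 521 to 2983 in replicate 6. WT replicate 1 lay within the KO range, and KO replicate 6 among the highest WT libraries. The edgeR log2 fold change was −1.24 ± 0.63 (SE, adjusted p = 0.378) over all libraries and −1.99 without KO replicate 6 (adjusted p = 0.0733). Over the 12 libraries Gnmt ran with Mat1a (r = 0.95, rho = 0.85, adjusted p = 0.0009 for r over the 45 pairs of the 10 genes, permutation), with r = 0.92 without WT replicates 2 and 5, 0.91 in KO alone and 0.84 among the shallower libraries.

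Nnmt (chr9:48538002-48607655), which methylates nicotinamide with the same methyl donor, varied most, over a 302.6-fold range. WT replicates 1 to 5 had 2.77, 814, 402, 59.4 and 823 CPM. KO replicates 1 to 7 had 2.72, 30.3, 79.0, 45.4, 5.07, 470 and 35.5 CPM. Both groups held libraries near the bottom and near the top, since KO replicate 1 and WT replicate 1 had almost the same low level and KO replicate 6 exceeded WT replicate 3. The edgeR log2 fold change of −2.14 ± 1.25 (SE, adjusted p = 0.439) became −3.67 without KO replicate 6 (adjusted p = 0.129). Nnmt followed Mat1a over the 12 libraries (r = 0.93, rho = 0.95, adjusted p = 0.0009, permutation), with r = 0.89 without WT replicates 2 and 5, 0.91 in KO alone and 0.85 among the shallower libraries. Of all genes tested, Mfsd2a (a lipid transporter, r = 0.95), Got1 (the cytosolic aspartate aminotransferase, 0.94) and Asl (a urea cycle enzyme, 0.94) were nearest to Nnmt in their log2 CPM over the 12 libraries. Asl (0.96) was also the second nearest to Mat1a.

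Ahcy (chr2:155059310-155074497) encodes adenosylhomocysteinase, which removes the by-product of every methyl transfer. Its row held few of the reads of its sequence. Gm4737 (chr16:46152985-46155077), annotated as protein-coding, was 99.7% identical to the Ahcy transcript over 2083 of 2543 bases and held 335 to 1908 CPM, while the Ahcy row held 7.51 to 67.8. Together with the pseudogene Gm9826 (99.2% identical over 1299 bases, 2.46 to 22.2 CPM), the Ahcy row was 2.09% to 5.28% of the sum. How reads were shared out between these copies is not given in the sources used here. In its own row Ahcy had 16.3, 57.4, 67.8, 30.3 and 51.6 CPM in WT replicates 1 to 5 and 7.51 to 41.1 CPM in KO with a median of 23.8, with the 3 highest WT libraries above all KO libraries. The edgeR log2 fold change was −0.89 ± 0.40 (SE, unadjusted p = 0.0476, adjusted p = 0.337). Summed over the copies, an alternative added after seeing the data, the level was 345 to 1963 CPM in KO (median 556) and 372 to 1960 in WT (median 1285), and the log2 fold change was −0.70 ± 0.48 (SE, edgeR, unadjusted p = 0.167). Of all genes tested, Gm4737 was the nearest to Mat1a over the 12 libraries (r = 0.96), followed by Asl and by Sidt2 (r = 0.95).

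Bhmt makes methionine from homocysteine with betaine as the methyl donor, and it had the largest difference among the 6 genes with an unadjusted p under 0.05. WT replicates 1 to 5 had 465, 1951, 2153, 2853 and 1600 CPM. KO replicates 1 to 7 had 440, 385, 263, 319, 1166, 1254 and 161 CPM. KO replicates 1, 2, 3, 4 and 7 were below all WT libraries, and KO replicates 5 and 6 lay between WT replicate 1 and the other WT libraries. All 7 KO libraries were below the WT mean, and 7.54% of all genes tested had 5 or more KO libraries below all WT libraries. The mean log2 CPM was 8.79 ± 1.09 (SD, n = 7) for KO and 10.60 ± 1.02 (SD, n = 5) for WT, and the level in KO was 3.17-fold lower by the edgeR fit (log2 fold change −1.66 ± 0.55 SE, unadjusted p = 0.00999, adjusted p = 0.235). The difference was −2.55 among the shallower libraries and −0.97 among the deeper ones. Leaving out both libraries with overlapping Pck1 levels, KO replicate 3 and WT replicate 4, gave −1.31 (unadjusted p = 0.051, edgeR).

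Bhmt also has near-identical copies, Gm5096 (99.4% identical over 1869 of 2490 bases, 25.4 to 445 CPM) and the pseudogene Bhmt-ps1 (98.9% over 1224 bases, 0.570 to 12.6 CPM). The Bhmt row was 84.7% to 88.4% of the sum, and the summed log2 fold change was −1.66 ± 0.55 (SE, edgeR, adjusted p = 0.234). Both copies were the nearest genes to Bhmt over the 12 libraries (r = 0.995 and 0.97), before Prpsap2 (r = 0.94), a regulatory subunit in phosphoribosyl pyrophosphate synthesis.

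Bhmt2, which takes its methyl group from S-methylmethionine, differed less than Bhmt. Its WT levels were 124, 228, 273, 226 and 216 CPM in replicates 1 to 5, and KO levels ran from 84.4 CPM in replicate 4 through a median of 133 to 183 in replicate 6. WT replicate 1 lay within the KO range, and the other 4 WT libraries were above all 7 KO libraries. The edgeR log2 fold change was −0.67 ± 0.22 (SE, unadjusted p = 0.0100, adjusted p = 0.235), with −0.64 among the shallower libraries and −0.73 among the deeper ones.

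Dmgdh, the mitochondrial enzyme that takes the next methyl group off the dimethylglycine left by Bhmt, stood in a like way between the groups. WT replicates 1 to 5 had 128, 448, 228, 265 and 354 CPM, and KO levels ran from 80.7 CPM in replicate 4 through a median of 141 to 209 in replicate 1. Again WT replicate 1 was within the KO range and the other 4 WT libraries were above all KO libraries. The edgeR log2 fold change was −1.02 ± 0.32 (SE, unadjusted p = 0.00801, adjusted p = 0.222). It was −0.46 among the shallower libraries and −1.66 among the deeper ones, while for Bhmt the shallower libraries had the larger estimate.

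The 3 neighbours on chromosome 13 varied together, and whether their 3 correlations differ from each other was not tested. Bhmt2 with Dmgdh, the pair whose start windows overlap, had r = 0.88 and rho = 0.90 (adjusted p = 0.00315 for r, permutation over the 45 pairs), 0.93 without KO replicate 4 and WT replicate 3, 0.89 in KO alone and 0.87 among the shallower libraries. Bhmt with Bhmt2 had r = 0.86 and rho = 0.88 (adjusted p = 0.00418, permutation), 0.83 without KO replicate 7 and WT replicate 4, 0.62 in KO alone and 0.92 among the shallower libraries. Bhmt with Dmgdh had r = 0.74 and rho = 0.76 (adjusted p = 0.0240, permutation), 0.65 without KO replicate 7 and WT replicate 4, 0.41 in KO alone and 0.82 among the shallower libraries. The genes that flank the cluster were measured too. Arsb, the lysosomal arylsulfatase B next to Dmgdh, had a log2 fold change of −0.34 ± 0.12 (SE, edgeR, unadjusted p = 0.0138, adjusted p = 0.249). It was below the whole WT range in 6 of 7 KO libraries, beside 7.54% of all genes tested with 5 or more such libraries. Lhfpl2 beyond it had −0.90 ± 0.55 (unadjusted p = 0.128). On the other side Jmy, an actin nucleation factor, had 0.32 ± 0.16 (unadjusted p = 0.0711), and Gm6109 had too few counts to be tested.

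Cbs (chr17:31612623-31637233), cystathionine beta-synthase, is the exit of homocysteine toward cysteine. Levels in WT replicates 1 to 5 were 426, 908, 1030, 194 and 909 CPM, and KO levels ran from 228 CPM in replicate 3 through a median of 313 to 647 in replicate 6. WT replicates 2, 3 and 5 were above all KO libraries and WT replicate 4 was below all of them. The WT spread, an SD of 1.03 on the log2 scale, exceeded the 0.50 of KO. The edgeR log2 fold change was −1.02 ± 0.39 (SE, unadjusted p = 0.0206, adjusted p = 0.270), with −0.93 among the shallower and −1.16 among the deeper libraries.

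The order of the 10 by median level per kilobase of exon over the 12 libraries was Gnmt (711 CPM per kilobase), Mat1a (536), Bhmt (327), Bhmt2 (62.1), Dmgdh (60.4), Cbs (54.2), Nnmt (50.3), Mat2b (18.2), Ahcy (11.8) and Mat2a (0.757). Bhmt exceeded Bhmt2 in all 12 libraries, and Ahcy exceeded Mat2a in all 12. Bhmt2 exceeded Dmgdh in 8, Dmgdh exceeded Cbs in 4 and Cbs exceeded Nnmt in 5, so that this middle group had no fixed order. The order also differed between the group medians. Nnmt was the fourth in WT (385 CPM per kilobase, above Cbs with 145) and the seventh in KO (34.0), and Ahcy was above Mat2b in WT (20.3 against 16.3) and below it in KO (9.36 against 20.2). With its copies Ahcy had a median of 266 CPM per kilobase, between Bhmt and Bhmt2. Over the 12 libraries the level of Mat2b varied 1.51-fold and that of Bhmt2 3.24-fold, against 17.9-fold for Mat1a and 17.8-fold for Bhmt.

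Of the 45 pairs of the 10 genes, 18 had an adjusted p under 0.05 for r over the 12 libraries, 16 with a positive r. Mat1a ran with Gnmt and Nnmt but less with Bhmt (r = 0.46, adjusted p = 0.178, permutation). Mat2b ran opposite to Bhmt (r = −0.79, rho = −0.85, adjusted p = 0.0165, permutation), with −0.69 without KO replicate 3 and WT replicate 4, −0.59 in KO alone and −0.89 among the shallower libraries. These correlations run over libraries that differ in genotype, depth and marker levels, and the 7 KO libraries alone gave smaller values for Bhmt with Bhmt2, for Bhmt with Dmgdh and for Mat2b with Bhmt.

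Library by library, KO replicate 6 and WT replicate 1 went against their groups for some of the genes. KO replicate 6 stood with high WT libraries in Mat1a, Gnmt and Nnmt and below all WT libraries in Mat2a. With its group, it was above all WT libraries in Mat2b. In Bhmt, Bhmt2 and Dmgdh it was below all WT libraries but replicate 1. It lay within the WT range for 8 of the 10 genes, beside 4 to 7 in the other KO libraries. It was the KO library with the highest periportal sum and the highest Kupffer cell and macrophage sum (1881 CPM, against 151 to 346 in the other KO libraries and 380 to 1132 in WT). WT replicate 1 lay below the other 4 WT libraries for 7 of the 10, Mat1a, Gnmt, Nnmt, Ahcy, Bhmt, Bhmt2 and Dmgdh, and above them for Mat2a. Its periportal sum of 5441 CPM was the lowest of the WT libraries and its pericentral sum of 8866 the highest. WT replicate 4 lay among the KO libraries other than replicate 6 in Mat1a and Nnmt and below all KO libraries in Cbs. Its Bhmt level was the highest of all libraries. KO replicates 4 and 5 were below all WT libraries for 5 genes each, and shared Gnmt, Ahcy and Dmgdh among them. KO replicate 4 was also below them in Bhmt and Bhmt2, whereas KO replicate 5 was below them in Mat1a and Mat2a and had one of the highest Bhmt levels in KO.

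Around the 10 genes, 73 listed genes of connected steps were examined, of which 70 were tested. None passed after adjustment in edgeR (0.0% of all genes tested), 2 did in DESeq2 (3.34% of all genes) and 20 in limma-voom with weights (14.5% of all genes). At an unadjusted p under 0.05, 14 were lower and 4 higher, or 25.7% beside 14.7% of all genes. The lists were chosen with earlier results of these tumours known, and Pemt stands in 2 of them.

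Among the partners of the cycle, 2 of 7 were lower at an unadjusted p under 0.05 (28.6%, beside 14.7% of all genes). The median log2 fold change was 0.08. Ahcyl2, a relative of Ahcy, had −0.56 ± 0.20 (SE, unadjusted p = 0.0164, edgeR). It had 5 of 7 KO libraries below the WT range, beside 7.54% of all genes tested with 5 or more such libraries. Adk, the adenosine kinase that clears the adenosine made by Ahcy, had −0.40 ± 0.19 (unadjusted p = 0.0585).

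The supply of choline and betaine held 4 lower genes and 1 higher of 9 tested (55.6%, beside 14.7% of all genes), with a median of −0.32. Slc6a12, a betaine transporter, had a log2 fold change of −1.13 ± 0.37 (SE). Chka, a choline kinase, had −1.40 ± 0.51, and Aldh7a1, which makes betaine from betaine aldehyde, had −0.80 ± 0.30. On the way from dimethylglycine through sarcosine to folate, 1 of 7 was lower (14.3%, beside 14.7% of all genes). It was Sardh, the sarcosine dehydrogenase that acts after Dmgdh (−0.95 ± 0.38 SE). The formyl-folate dehydrogenases Aldh1l2 (2.39 ± 1.15) and Aldh1l1 (−0.88 ± 0.46) had estimates in opposite directions, neither with an unadjusted p under 0.05 in edgeR.

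Downstream of Cbs, 4 of 11 transsulfuration and cysteine genes were lower and 0 higher (36.4%, beside 14.7% of all genes), with a median of −0.55. Mpst, a sulfurtransferase, had −0.55 ± 0.16 (SE), Sqrdl, the mitochondrial sulfide oxidase, −0.97 ± 0.34, and Ethe1, the persulfide dioxygenase that follows it, −1.13 ± 0.40. Of the 16 enzymes that pass methyl groups to other molecules, 2 were lower and 1 higher (18.75%, beside 14.7% of all genes). The higher one, Prmt1, the main arginine methyltransferase of proteins, had 0.63 ± 0.19 (SE, unadjusted p = 0.0060, adjusted p = 0.216, edgeR). Its 33.4 to 72.9 CPM in KO were above the 23.0 to 30.3 CPM in WT in all 7 libraries, beside 1.21% of all genes tested without overlap. The lower ones were As3mt (−0.43 ± 0.16), the arsenite methyltransferase, and Mettl7b (−0.87 ± 0.39), a thiol methyltransferase.

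Polyamine synthesis and the salvage of methionine from its by-product held 1 lower and 2 higher of 11 (27.3%, beside 14.7% of all genes). The median was −0.01. All 3 are salvage enzymes. Adi1 had −0.48 ± 0.12 (SE, unadjusted p = 0.0012, adjusted p = 0.186, edgeR). It lay below the WT range in 6 of 7 KO libraries, beside 7.54% of all genes tested with 5 or more such libraries. Mri1 (0.47 ± 0.18) and Enoph1 (0.63 ± 0.27) had positive values. Among the nicotinamide and NAD genes around Nnmt, 0 of 10 had an unadjusted p under 0.05 in edgeR, beside 14.7% of all genes. The 3 with the smallest p were Nadsyn1 (−0.35 ± 0.19), Nmnat1 (−0.56 ± 0.36) and Sirt1 (0.26 ± 0.19).

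**Figure D4:**
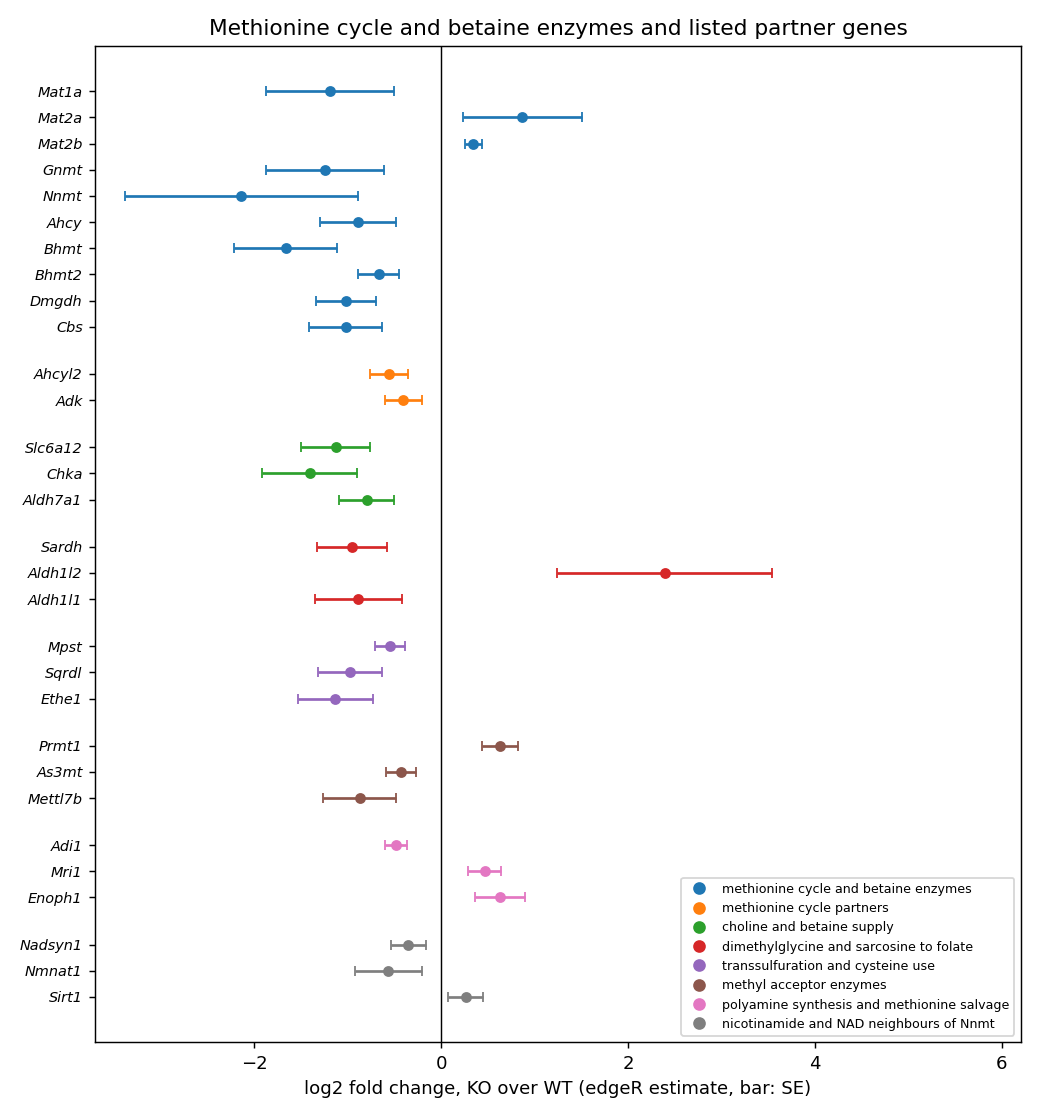
edgeR log2 fold change of KO over WT (points) with its SE (bars) for the 10 enzymes and for 2 or 3 genes with small p of each of 7 lists of connected steps. Points left of 0 are lower in KO, as for 8 of the 10 enzymes, and none of the genes shown has an adjusted p under 0.05.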

How the data were processed

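Raw read counts per gene, as whole numbers for 12 liver tumour libraries, were used as deposited by the authors. Reads were aligned with HISAT2 to mm10, per the submitters' processing notes. How reads were counted per gene (program, strand, annotation) is not given in the sources used here. Total RNA came from Trizol extraction, per the labels' protocols. Groups follow the genotype label, and replicates were numbered in accession order. All pairs of libraries of the same group differed by more than sampling noise (smallest chi-square per degree of freedom 76.9).

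Genes were kept by filterByExpr (minimum count 10, minimum total 15) and tested with edgeR 4.0.16 in R 4.3.3 (TMM, robust quasi-likelihood F-test, KO against WT, no covariates), with Benjamini-Hochberg adjustment over 14666 genes at 0.05. The SE was obtained by dividing the log2 fold change by the root of its F statistic. CPM uses TMM library sizes, and log2 CPM adds a prior count of 2. Levels per kilobase divide by the exon length of GENCODE M21 coding transcripts. Copies of at least 1000 aligned bases and 95% identity were found by aligning these transcripts to each other, and those of at least 98% were summed with their gene. The balance was tested by exact permutation, and the 45 pairs by 100000 permuted pairings.

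The 10 genes, the lists and the tests were chosen with earlier results of these data known. Named genes are the 10, Pck1, up to 3 per list by smallest p, the neighbours of the chromosome 13 cluster, and the 3 genes nearest by r to Mat1a, Mat2a, Bhmt and Nnmt. Values of some listed genes are part of the counts but not reported here. Copies, overlapping genes, Itch and Xist were named after their values were seen. Alternatives were other scalings, filters and spread estimates, DESeq2 1.42.0, limma 3.58.1 (voom with and without sample weights), depth and Xist class as terms, subsets by depth, a prior count of 0.5 and each library left out. Leaving out KO replicates 3, 4 and 6 for the gene counts, leaving out both libraries with overlapping Pck1, and summing copies were added after seeing the data.

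On data simulated for KO against WT over 14474 genes, edgeR found 42 of 50 genes with a 4-fold increase and 39 of 50 with a 4-fold decrease. For 2-fold changes it found 22 of 50 increased and 17 of 50 decreased genes, and it called 4 unchanged genes. DESeq2 called 54 unchanged genes, and limma-voom with weights called 6. The simulated libraries shared the same mean per gene apart from the set changes. None of them was set to depart from its group. In the data, WT replicate 1 lay below all other WT libraries for 7 of the methionine cycle and betaine enzymes. Its departure over all genes was not measured. Leaving out KO replicate 6 gave 65 genes with an adjusted p under 0.05 in edgeR, against 0 with all libraries. Leaving out WT replicate 1 gave 1. The simulation therefore cannot show how many calls of any tool are false in the real libraries.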

Additional observations from a re-analysis of the deposited data

Results flagged for a closer look

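Cbs in KO replicate 6 lay far from the other KO libraries. Its level of 9.34 log2 CPM was followed by 8.41 in the next KO library, and the gap was 0.615 of the whole KO range, against Dixon's critical value of 0.568 for 7 libraries. It was 1 of 22 groups examined this way, and chance flags about 1 in 20.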

How the results depend on the processing

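Over 27 alternatives for each of the 10 genes, 260 of 270 log2 fold changes kept their direction and their side of the threshold. The one reversal was Mat2a among the deeper libraries, at −0.15 (adjusted p = 0.906), and the cause was not tested. The other 9 moved past the threshold, 8 in limma-voom with sample weights and Mat2b in DESeq2. Since 0.0% of all genes passed in the main edgeR fit, staying on one side of the threshold says little about how steady an estimate is. Over the alternatives the log2 fold change ran from −2.37 to −0.81 for Mat1a and from −1.66 to −0.46 for Dmgdh. The count of the 10 past the threshold was 0 in edgeR, 1 in DESeq2 and 8 in limma-voom with weights, and that of the 70 connected genes was 0, 2 (Adi1 among them) and 20 (16 lower, 4 higher). With each library left out, both counts stayed at 0 (lowest and highest). The count with an unadjusted p under 0.05 was 6 of 10 (14.7% of all genes). It was 3 (1 lower, 2 higher) among the shallower libraries (11.1%) and 1 among the deeper (13.3%), where fewer libraries were fitted. With each library left out it was 4 to 9. It was 9 without KO replicate 6 (19.4%) and 4 without WT replicate 2, 3 or 5. Over all genes, 735 were higher and 755 lower of 14849 without WT replicate 2. These were 912 and 912 of 15002 without WT replicate 3, and 785 and 763 of 14882 without WT replicate 5. The count of the 10 was 9 without KO replicates 3, 4 and 6 (818 higher and 1272 lower of 14458 genes). It was 5 with copies summed (1064 and 1088 of 14662). For the connected genes the count was 18, and 33 in limma-voom with weights (33.1% of all genes). It was 11 among the shallower libraries (11.1%) and 8 among the deeper (13.3%). With each library left out it was 9 to 21 (9 without WT replicate 2, 11 without WT replicate 5, 21 without KO replicate 6), beside the values over all genes given above. The balance difference ran from −2.50 to −1.31 with each library left out, was −2.36 without KO replicate 6 (exact p = 0.0498) and −2.68 without KO replicates 3, 4 and 6 (exact p = 0.0635). Without those 3 libraries Nnmt was at −4.53 and Mat1a at −2.37. With the Xist class as a term, the log2 fold change of Bhmt was −2.44, that of Dmgdh −1.43 and that of Cbs −0.77 (edgeR adjusted p = 0.632). These values depend on WT replicate 4, the only WT library in the higher Xist class. Counts of 33 to 218 per library limit the precision of Mat2a. No paired analysis was possible because the replicate numbers only follow the accession order, and the labels give no pairing.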

Other observations

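Itch, an E3 ubiquitin ligase gene that lies next to Ahcy on chromosome 2, had 1516 CPM in KO replicate 5, while the other 11 libraries had 36.3 to 54.1 CPM. It was singled out after its values were seen. KO replicate 5 had the lowest level of Ahcy's own row, 7.51 CPM. It also had the lowest levels of Mat1a (567.8 CPM), Mat2a (0.886) and Gnmt (227), which lie on other chromosomes. Whether the Itch and Ahcy values are connected was not tested.

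The nearest genes to Mat2a over the 12 libraries were Pnliprp1, a pancreatic lipase relative (r = 0.98, 0 to 139 CPM), Keap1, the sensor that holds back Nrf2 (r = 0.95, 66.9 to 116 CPM), and the locus Gm36520 (r = 0.95, 0 to 49.9 CPM). Their edgeR log2 fold changes were 3.97 ± 2.10, 0.22 ± 0.15 and 4.39 ± 1.82 (SE). These are descriptions over 12 libraries of both genotypes and both depth classes.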
